A study of Homo sapiens with 4 samples.

Results

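The LacZ control pull-down of RD cells was compared with the input from the same line, to describe which miRNAs beads and control probes retained. RD is a cell line from a human embryonal rhabdomyosarcoma, a soft tissue cancer that resembles developing muscle. The cells received no treatment. The input library was made from cell lysate, and the LacZ library from a native pull-down in which biotinylated antisense probes against the bacterial LacZ mRNA, which has no counterpart in human cells, were captured on streptavidin beads. Pull-downs with 2 other probe sets, EVEN and ODD, both against exon 2 of HIPK3, the exon that forms the circular RNA circHIPK3, are given beside these values where they bear on them. There was 1 library per group and 1 biological replicate, so differences between the libraries carry no replicate check and no test.

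Of 2656 mature miRNAs listed, 475 reached 20 reads in the LacZ library, the input or both, and these are described here. Both libraries reached the minimum for 270 of them, only the input for 191, and only LacZ for 14. The 14 had to be higher in LacZ to be included, so the main counts below are also given without them, for miRNAs with at least 20 input reads. At the edge of this choice, miR-579-3p had 20 reads in the input and 1 in LacZ and was included, while miR-1285-3p, with 19 and 1, was not. The 475 took 99.9% of the input reads and 99.8% of the LacZ reads.

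The input held 2987858 miRNA reads and LacZ 425395, 7.02-fold fewer. EVEN held 98950 and ODD 426450. Levels are given as CPM, the count scaled to the total miRNA reads of its library. A miRNA with 0 reads could still be present at up to 1.00 CPM in the input, 7.05 in LacZ, 30.3 in EVEN and 7.03 in ODD. The muscle identity of the cells was visible in the input, where miR-206 took 4.21% of reads, miR-1-3p 1.40% and miR-133a-3p 0.501%. Of the 6 blood cell miRNAs examined, miR-451a had 0 reads in all 4 libraries, and the list took 0.00408% of the input and 0.00658% of LacZ. miR-126-3p, known from endothelium, and miR-9-5p, known from neurons, were abundant at 28794 and 30054 input reads. In a bulk library, fewer cells of a type and less RNA per cell cannot be told apart.

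Mature miRNAs are about the length of a guide that an Argonaute protein can hold, and they find targets mainly through the seed, bases 2 to 8 from the 5′ end. Each hairpin precursor can give a miRNA from its 5′ arm (5p) and its 3′ arm (3p), and usually the more abundant arm is the guide while the other is degraded. A pull-down recovers RNA that pairs with the probe, RNA held in complexes with it, and RNA or protein that adheres to beads or probe, and the LacZ control is meant to contain what does not depend on a human target.

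The sequences are shown because the results below turn on base composition, on arms of 1 hairpin and on families with a shared seed. They are RefSeq mature sequences (GRCh38.p14), written 5′ to 3′ with the seed in capitals. The first set was at least 4-fold higher in LacZ than in the input:
miR-6820-5p: uGCGGCAGagcugggguca
miR-205-5p: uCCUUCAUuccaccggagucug
miR-1307-3p: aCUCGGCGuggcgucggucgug
miR-1301-3p: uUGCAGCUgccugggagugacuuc
miR-1247-5p: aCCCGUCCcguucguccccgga
miR-509-3p: uGAUUGGUacgucuguggguag
miR-1180-3p: uUUCCGGCucgcgugggugugu
miR-92b-5p: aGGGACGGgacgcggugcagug
miR-449a: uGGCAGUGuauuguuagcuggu
miR-378a-5p: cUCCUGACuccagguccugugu
miR-423-5p: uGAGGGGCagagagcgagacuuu
miR-125a-5p: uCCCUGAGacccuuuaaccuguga
The second set was lower, and its first pair shares the seed of the miR-19 family:
miR-19b-3p: uGUGCAAAuccaugcaaaacuga
miR-19a-3p: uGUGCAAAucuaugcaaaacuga
miR-362-3p: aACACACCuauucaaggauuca
miR-133b: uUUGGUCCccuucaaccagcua
miR-590-5p: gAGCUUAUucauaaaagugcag
miR-1-3p: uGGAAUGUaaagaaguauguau
The third set holds families whose members share a seed and had different ratios, first the miR-15/16 family, then the miR-99/100 family and the miR-25/92 family:
miR-16-5p: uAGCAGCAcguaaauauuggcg
miR-15b-5p: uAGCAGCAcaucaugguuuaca
miR-15a-5p: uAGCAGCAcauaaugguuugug
miR-424-5p: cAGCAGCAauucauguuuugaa
miR-99b-5p: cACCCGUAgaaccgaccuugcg
miR-100-5p: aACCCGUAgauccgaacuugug
miR-99a-5p: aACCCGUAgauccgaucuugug
miR-92a-3p: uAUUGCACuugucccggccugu
miR-25-3p: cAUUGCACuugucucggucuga
The last set gives arms of the MIR7-1 and MIR1307 hairpins that are set side by side below:
miR-7-5p: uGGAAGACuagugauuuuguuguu
miR-7-1-3p: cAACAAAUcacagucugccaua
miR-1307-5p: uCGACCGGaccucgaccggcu

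LacZ largely kept the order of the input: across the 475 miRNAs, the log2 shares of reads in the 2 libraries had a Pearson correlation of 0.831, and 0.84 across the 145 with at least 1000 input reads. This is a description over miRNAs that share 2 libraries, not over replicates. The let-7 guides, which restrain growth, led both libraries, with let-7a-5p at 73717 CPM in the input and 91042 in LacZ and let-7f-5p next. miR-206, miR-93-5p, let-7b-5p and let-7i-5p were also among the 10 most abundant of both. miR-19b-3p, miR-335-5p, miR-20a-5p and miR-660-5p were among the 10 most abundant of the input only. Their places in LacZ were taken by miR-125b-5p, miR-125a-5p, miR-16-5p and miR-92a-3p.

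In this comparison 86 of the 475 miRNAs (18.1%) were at least 2-fold higher in LacZ, 163 (34.3%) at least 2-fold lower and 226 less than 2-fold apart. Of the 461 with at least 20 input reads, 72 (15.6%) were higher and 163 (35.4%) lower. The calls use the log2 ratio of LacZ over input, taken from shares of reads after adding 0.5 to each count. The 95% counting interval of the fold excluded 1 for 84 of the higher and 135 of the lower miRNAs. Among the lower, 20 had 0 reads in LacZ, and for 7 of these the input level was at least 2-fold above what a count of 0 allows. The median log2 ratio was -0.44, and relative to it 116 (24.4%) were higher by at least 2-fold and 111 (23.4%) were lower. TMM factors, which lower every ratio by 0.602, gave 63 higher and 246 lower. Median-of-ratios size factors lower every ratio by 0.281, and totals without the 10 most abundant miRNAs raise every ratio by 0.221. For this reason lists are described below relative to the median of the 475.

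**Figure D1:**
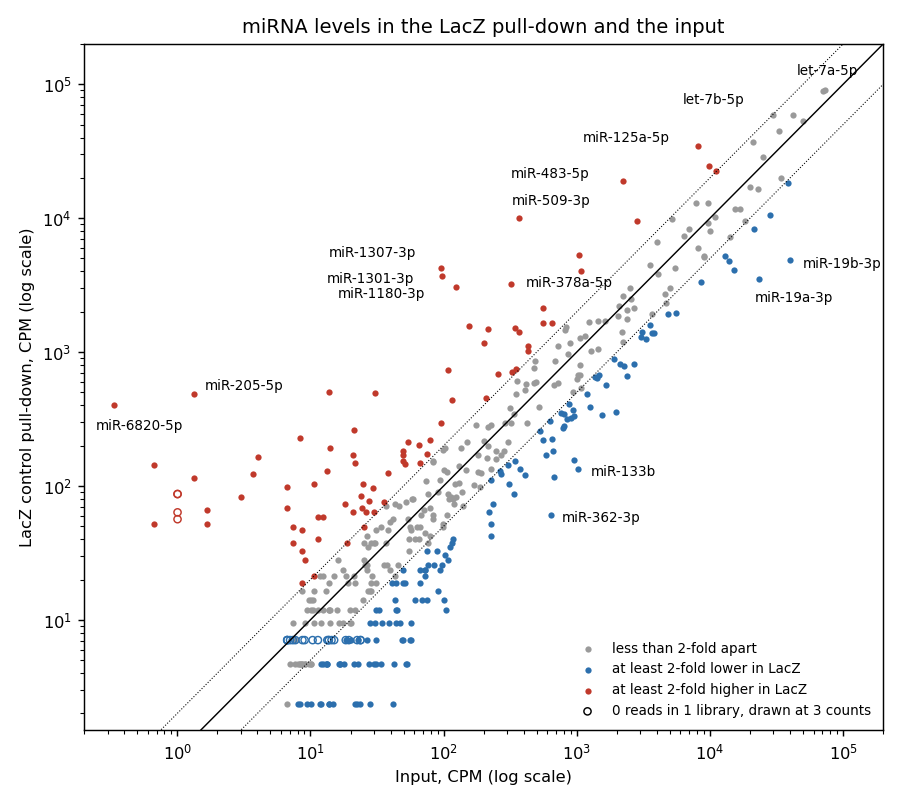
CPM of each of the 475 miRNAs in the input (horizontal, log scale) and in the LacZ pull-down (vertical, log scale). The solid line marks equal levels and the dotted lines a 2-fold difference; open circles had 0 reads in 1 library and are drawn at 3 counts. The calls add a constant to each count and put 226 miRNAs less than 2-fold apart, 86 higher and 163 lower. Points are drawn without that constant, so a point near a dotted line can fall on its other side. Of the 20 miRNAs called lower at 0 LacZ reads, only 7 are drawn at least 2-fold below the solid line. Among all points miR-1307-3p, miR-1301-3p, miR-1180-3p and miR-509-3p stand far above the solid line, and the abundant miR-19a-3p and miR-19b-3p lie below it.

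Among miRNAs with at least 100 reads in either library, the 2 highest ratios belonged to miRNAs that were nearly missing from the input. miR-6820-5p had 1 read in the input and 171 in LacZ, and miR-205-5p, an epithelial miRNA, had 4 and 208, 365-fold higher (95% counting interval 141 to 1353). Counting intervals cover counting error only. miR-6820-5p and miR-205-5p passed the minimum of 100 reads through LacZ alone and had to be higher. The next in order had more input reads. miR-1307-3p had 284 input reads and 1808 LacZ reads, 44.7-fold higher by share (39.4 to 50.9). miR-1301-3p had 293 and 1578, 37.8-fold higher (33.4 to 43.0). miR-1180-3p had 373 and 1309, 24.6-fold higher (21.95 to 27.7). In these 3 the raw count itself was larger in LacZ, although that library was shallower.

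miR-509-3p, of an X-linked family of primates, had 1099 input reads and 4297 in LacZ, 27.5-fold higher (25.7 to 29.4). It took 0.0368% of input reads and 1.01% of LacZ reads. miR-1247-5p was 36.5-fold higher (26.0 to 52.3, from 41 and 213 reads). miR-1306-5p was 16.4-fold higher (12.7 to 21.2, from 91 and 212) and miR-92b-5p 12.5-fold (9.09 to 17.3, from 63 and 112). miR-1247-5p, miR-1306-5p and miR-92b-5p passed the read minimum for the 12 highest through LacZ alone, so they had to be higher. miR-449a, known for its part in making multiciliated cells, was 10.2-fold higher (9.02 to 11.5), and miR-378a-5p, from an intron of the metabolic regulator PPARGC1B, was 10.1-fold higher (9.31 to 11.0). miR-483-5p, encoded within IGF2, completed the 12 highest at 8.56-fold (8.28 to 8.84), with 6600 and 8043 reads.

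Of the 145 miRNAs with at least 1000 input reads, 16 (11.0%) were at least 2-fold higher in LacZ and 53 (36.6%) lower. Beside miR-509-3p and miR-483-5p, the highest were miR-423-5p at 5.05-fold (4.78 to 5.34), miR-486-3p at 4.42-fold (3.996 to 4.88) and miR-125a-5p at 4.25-fold (4.16 to 4.33). miR-125a-5p, a homologue of the developmental regulator lin-4, was the only one of these among the 10 most abundant in LacZ, with 14701 reads. miR-501-3p (3.85-fold), miR-423-3p (3.83-fold), miR-486-5p (3.78-fold), miR-483-3p (3.36-fold), miR-197-3p (2.97-fold), miR-106b-3p (2.60-fold) and miR-103b (2.51-fold) completed the 12 highest of this class. Both arms of the miR-483, miR-486 and miR-423 hairpins were thus among them. With TMM factors the last 3 miRNAs named, miR-197-3p, miR-106b-3p and miR-103b, were under 2-fold. MIR423 overlaps MIR3184 on the opposite strand, and miR-103b is antisense to miR-103a. Without knowing that strand was used in counting, reads of such pairs cannot be told apart.

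At the low end of this class stood miR-362-3p, with 1900 reads in the input and 26 in LacZ, 10.4-fold lower (7.08 to 15.97). The miR-19 family, part of the miR-17-92 cluster, followed: miR-19b-3p had 119816 and 2055 reads, 8.30-fold lower (7.95 to 8.68), and miR-19a-3p 69559 and 1506 reads, 6.58-fold lower (6.25 to 6.92). These 2 miRNAs share a seed, and no more abundant miRNA was as much as 4-fold lower. The muscle miRNA miR-133b was 7.62-fold lower (5.87 to 10.1), miR-590-5p 6.09-fold, the hypoxia-induced miR-210-3p 5.70-fold (4.31 to 7.71) and miR-30b-5p 5.55-fold. miR-424-5p (4.56-fold), miR-188-3p (3.89-fold), miR-130a-3p (3.69-fold, 3.52 to 3.88), miR-514a-5p (3.66-fold) and miR-15b-3p (3.60-fold) completed the 12 lowest. miR-335-5p, with 115290 input reads, was 2.10-fold lower, and less than 2-fold lower with totals that leave out the 10 most abundant miRNAs.

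Several of the lowest ratios among rarer miRNAs belonged to the scarce arms of hairpins with an abundant guide. miR-16-1-3p had 125 input reads and 1 in LacZ, miR-181b-2-3p 159 and 2, miR-26a-2-3p 156 and 2, and miR-7-1-3p 310 and 5. miR-135b-5p, miR-582-5p, miR-33b-5p and miR-376a-3p had 126 to 302 input reads and 2 to 6 in LacZ. At these counts the intervals are wide, and that of miR-26a-2-3p ran from 3.02-fold to 92.5-fold lower.

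The miRNAs printed above come from many loci, given here on GRCh38 with the host gene in GENCODE release 29. MIR1307 lies on chromosome 10 at 103394253 to 103394401, minus strand, in an intron of ATP5MD. MIR1301 lies on chromosome 2 at 25328640 to 25328721, minus strand, in an intron of the DNA methyltransferase gene DNMT3A. MIR1180 lies on chromosome 17 at 19344506 to 19344574, minus strand, in an intron of B9D1. miR-509-3p can come from 3 hairpins on the minus strand of chromosome X, at 147258760 to 147258850, 147259652 to 147259726 and 147260532 to 147260625, with no host gene on that strand. MIR6820 lies on chromosome 22 at 37967563 to 37967624, plus strand, in an intron of POLR2F. MIR205 lies on chromosome 1 at 209432133 to 209432242, plus strand, in an intron of MIR205HG. MIR362 lies on chromosome X at 50008964 to 50009028, plus strand, in an intron of CLCN5.

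The other pull-downs separate the miRNAs that were high in LacZ by their levels, which are given side by side because all 3 comparisons would share the input. Some were above the input with every probe set. miR-483-5p had 2209 CPM in the input, 18907 in LacZ, 43234 in EVEN and 14940 in ODD. miR-423-5p had 1045, 5282, 17736 and 16487 CPM in the same order, and miR-486-5p 1075, 4057, 6407 and 2134. miR-205-5p had 1.34, 489, 202 and 832 CPM, so that the RNA nearly missing from the input was seen in all 3 pull-downs.

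Others were far higher in LacZ than in EVEN, ODD or the input. miR-1301-3p had 98.1 CPM in the input, 3709 in LacZ, 131 in EVEN and 166 in ODD. miR-1307-3p had 95.1, 4250, 344 and 347 CPM, and miR-1180-3p 125, 3077, 323 and 209. For miR-449a (155, 1575, 30.3 and 9.38 CPM) and miR-378a-5p (321, 3249, 182 and 75.04 CPM), EVEN and ODD were below the input. miR-509-3p was high in LacZ (10101 CPM) and EVEN (16402) but not in ODD (450), against 368 in the input. miR-6820-5p had 402 CPM in LacZ, and 20.2 and 4.69 CPM, from 2 reads each, in EVEN and ODD. With 1 library each, a difference between probe sets cannot be told apart from one between libraries.

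Of the 12 lowest miRNAs with at least 1000 input reads, 8 had a higher CPM in LacZ than in both other pull-downs. miR-19b-3p had 40101 CPM in the input, 4831 in LacZ, 718 in EVEN and 783 in ODD, and miR-19a-3p 23281, 3540, 606 and 450. miR-130a-3p had 15195, 4114, 1435 and 654 CPM. For each of these LacZ lay between the input and both other pull-downs. The exceptions were miR-133b, miR-210-3p, miR-424-5p and miR-188-3p. miR-188-3p had 338 CPM in the input, 87.0 in LacZ and 14.1 in ODD but 566 in EVEN.

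**Figure D2:**
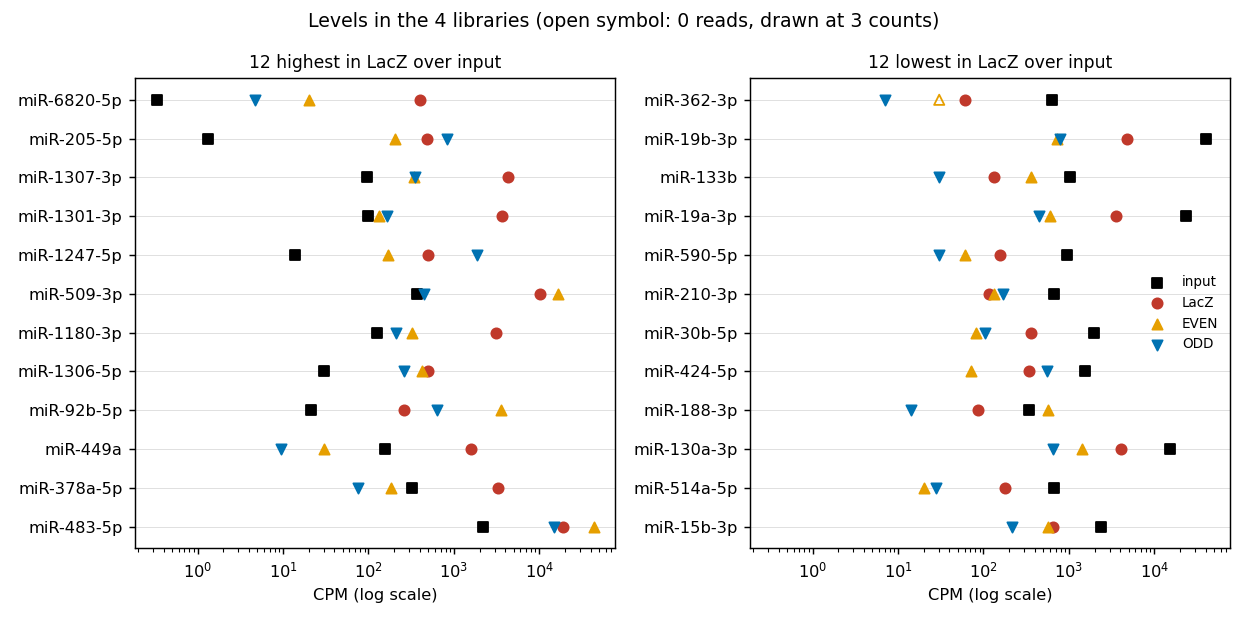
CPM (log scale) in the input, LacZ, EVEN and ODD libraries of the 12 miRNAs highest in LacZ over input among those with at least 100 reads (left) and the 12 lowest among those with at least 1000 input reads (right). Open symbols had 0 reads and are drawn at 3 counts. LacZ stands apart from all other libraries for miR-1307-3p, miR-1301-3p and miR-1180-3p, whereas for miR-483-5p all pull-downs lie above the input.

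The ratio varied with base composition. A mature sequence was matched for 434 of the 475 miRNAs (91.4%). Of the 70 with a GC content of 60% or more, 38 (54.3%) were at least 2-fold higher in LacZ and 11 (15.7%) lower, and the median log2 ratio was 1.12. With at least 20 input reads, 32 of 64 (50.0%) were higher. With at least 1000, 3 of 14 (21.4%) were higher and 4 (28.6%) lower. Of the 107 with under 40% GC, 5 (4.67%) were higher and 57 (53.3%) lower, with a median of -1.06. The classes in between were ordered the same way, with medians of -0.47 (128 miRNAs, 40 to under 50%) and -0.11 (129 miRNAs, 50 to under 60%). The difference of medians between the highest and lowest class was 2.17. It was 2.03 over miRNAs with at least 20 input reads and 1.35 over the 131 with at least 1000, where the highest class had 14 miRNAs and a median of 0.28 and the lowest had 39 and a median of -1.07.

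Across the 434 miRNAs the log2 ratio had a Pearson correlation of 0.419 with GC content, 0.382 with the share of G, 0.0845 with the share of C and -0.348 with the share of A. All points come from the same 2 libraries. Some of the sequences shown at the start give the contrast: miR-1307-3p, miR-1247-5p and miR-92b-5p are each 72.7% GC, while miR-19a-3p is 34.8%, miR-362-3p and miR-590-5p 36.4% and miR-1-3p 27.3%. The higher and lower sets also overlap in GC content. Of the higher set, miR-449a is 45.45% and miR-509-3p and miR-125a-5p are 50.0% each, and miR-133b of the lower set is 50.0%. Exceptions stood on both sides. miR-210-3p, 63.6% GC, was low, and miR-7-5p, the miRNA sponged by CDR1as, was 2.00-fold higher at 33.3% GC. That call was lost with TMM and with median-of-ratios size factors.

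Runs of G showed the same order. Of 27 miRNAs with the motif GGGG, read on the mature strand only, 14 (51.9%) were at least 2-fold higher in LacZ and 0 were lower, with a median of 1.09. Of the 24 with at least 20 input reads, 11 (45.8%) were higher. They are 6.22% of the miRNAs with a sequence, while the motif is in 11.7% of all mature miRNAs of the RefSeq table. In miRNAs whose longest run of G was 1 or 0, 15 of 126 were higher and 64 (50.8%) lower. miR-423-5p and miR-6820-5p hold GGGG. GC content and runs of G overlap as features, and their parts were not separated. Of the 92 miRNAs that begin with C, 49 (53.3%) were lower, beside 34.3% over the 475 miRNAs. The counts were 58 of 187 (31.0%) for U, 13 of 40 (32.5%) for G and 22 of 115 (19.1%) for A. Length had a Pearson correlation of 0.00336 with the ratio, although 10 of the 19 miRNAs of 20 nt or less were higher, beside 18.1% over the 475. With at least 20 input reads 8 of 17 were higher, beside 15.6% of 461. Only 1 miRNA of this length had at least 1000 input reads.

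Counted over reads in place of miRNAs, the mean GC content was 42.1% in the input, 43.9% in LacZ, 44.9% in EVEN and 43.95% in ODD. miRNAs under 40% GC took 44.4% of the input reads with a matched sequence, 33.5% of LacZ, 23.3% of EVEN and 27.5% of ODD. All 3 pull-downs therefore lay above the input in GC content. Among miRNAs with at least 1000 input reads, the median log2 ratios over the shared input from the lowest to the highest GC class were -3.06, -1.14, -0.75 and -0.38 in EVEN and -3.46, -2.01, -1.64 and -1.63 in ODD. The cause of this relation was not tested.

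**Figure D3:**
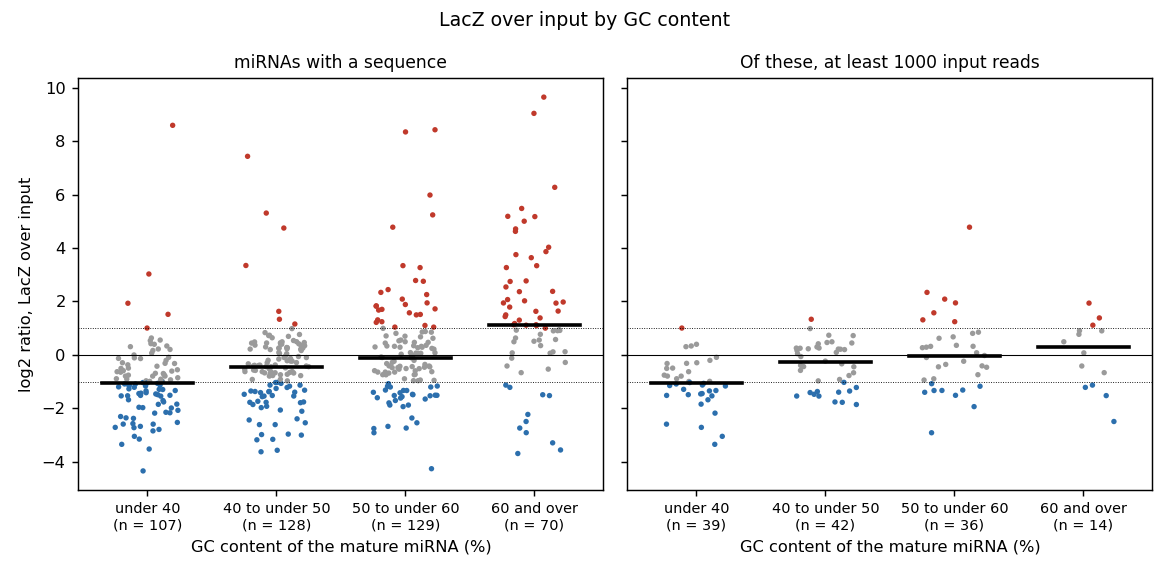
Log2 ratio of LacZ over input (vertical) for miRNAs grouped by the GC content of the mature sequence (horizontal), for the 434 with a sequence (left) and the 131 of these with at least 1000 input reads (right). Each point is 1 miRNA, black bars are medians, red and blue points are at least 2-fold higher or lower, and dotted lines mark 2-fold. The medians climb from -1.06 to 1.12 on the left and from -1.07 to 0.28 on the right.

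Arms of the same hairpin, which are made together, could differ in their ratios. Of 77 hairpins with at least 100 reads for each arm in either library, the log2 ratios of the arms differed by at least 1 in 45 and by at least 2 in 21. No such count was made for pairs of unrelated miRNAs. Whether arms of a hairpin differ more or less than such pairs was therefore not tested. Several of the differences of at least 2 rest on an arm with few LacZ reads, such as miR-16-1-3p with 1, miR-582-5p with 3 and miR-361-3p with 4. The arm that was less abundant in the input had the higher ratio in 35 of the 77 hairpins and the lower in 42. In the 70 hairpins whose arms differ in GC content, the arm with more GC had the higher ratio in 49 and the lower in 21. The largest difference was in MIR1307, where miR-1307-5p was 2.34-fold lower and miR-1307-3p 44.7-fold higher, although they are 71.4% and 72.7% GC. The call for miR-1307-5p was lost with totals that leave out the 10 most abundant miRNAs. The 3p arm made up 10.6% of the reads of this hairpin in the input and 92.5% in LacZ.

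In MIR7-1, miR-7-5p had 33324 and 9503 reads while miR-7-1-3p had 310 and 5. The former can also come from other MIR7 hairpins. In MIR509-3, miR-509-3-5p had 134 and 5 reads and was 3.82-fold lower, while the 3p arm was far higher. miR-16-5p, miR-181b-5p and miR-26a-5p, guides with ratios of 0.20, 0.46 and 0.41, had scarce other arms in miR-16-1-3p, miR-181b-2-3p and miR-26a-2-3p, at 1 or 2 LacZ reads each. miR-16-5p also comes from MIR16-2, whose other arm, miR-16-2-3p, had 676 and 18 reads. In MIR378A the balance turned, with the 5p arm at 31.97% of the reads of the hairpin in the input and 79.2% in LacZ. In MIR92B the 5p arm was at 13.4% and 57.7%. This arm, miR-92b-5p, had 63 and 112 reads. It passed the minimum of 100 reads through LacZ alone, so its ratio had to be higher.

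Families with a shared seed were described by the median of their log2 ratios relative to the median of the 475 miRNAs. The 9 let-7 guides lay above it, at 0.77, with 7 above and 2 below and none 2-fold apart from the input. let-7b-5p was highest, at 1.97-fold, and let-7g-5p lowest, at 1.74-fold lower. The family's share was 23.99% of the input and 31.98% of LacZ. Its passenger strands, the arms opposite the guides, lay lower, at -1.07. Of 10, 7 were called at least 2-fold lower, beside 34.3% over the 475 miRNAs, and 1, let-7i-3p, was higher at 2.36-fold (2.11 to 2.63). The 7 had 0 to 11 LacZ reads each. At 0 LacZ reads, the bound for miR-98-3p was only 1.90-fold lower. With 5 added to each count, its call and that of let-7f-2-3p were lost. let-7i-3p was under 2-fold with TMM and with median-of-ratios size factors. let-7d-3p, the most abundant passenger, was 1.80-fold higher.

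The miR-29 family, which represses matrix genes, had 3 of 3 members lower, from 2.54-fold for miR-29c-3p to 2.92-fold for miR-29a-3p. Of the 5 miRNAs of the miR-130, miR-301 and miR-454 family, 4 were lower (relative median -1.02), with miR-454-3p the exception at 1.42-fold. In the miR-30 family 4 of 5 were lower (-0.82), and miR-30e-5p, its most abundant member, was 1.31-fold lower. In the miR-148 and miR-152 family miR-148a-3p was 2.56-fold lower and miR-148b-3p 1.71-fold. The 4 miR-181 guides were all less than 2-fold apart from the input (0.40), as were miR-26a-5p and miR-26b-5p, and miR-103a-3p and miR-107. Across all of these, the share called lower in the 475 miRNAs was 34.3%.

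Members with a shared seed could have different ratios. In the miR-15/16 family, which represses cell cycle genes, miR-16-5p was level with the input at 1.15-fold higher (75357 and 12285 reads). miR-15b-5p was 2.60-fold lower, miR-15a-5p 3.45-fold and miR-424-5p 4.56-fold, and miR-503-5p, whose seed differs, 2.26-fold. The call for miR-503-5p was lost with totals that leave out the 10 most abundant miRNAs. In the miR-99/100 family miR-99b-5p (63.6% GC) was 1.87-fold higher, and miR-99a-5p and miR-100-5p (50.0% GC each) were 2.53-fold and 2.06-fold lower. The latter had 9 LacZ reads and an interval of 1.05-fold to 4.60-fold, and with 0.5 added its log2 ratio of -0.97 was not past the threshold. miR-125b-5p, encoded with miR-100 and miR-99a in clusters, was 1.75-fold higher. In the miR-25/92 family miR-92a-3p was 2.48-fold higher (2.42 to 2.53), miR-25-3p 1.38-fold lower and miR-32-5p 2.22-fold lower. With TMM factors miR-92a-3p was under 2-fold. The call for miR-32-5p, at a log2 ratio of -1.15, was lost with totals that leave out the 10 most abundant miRNAs.

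**Figure D4:**
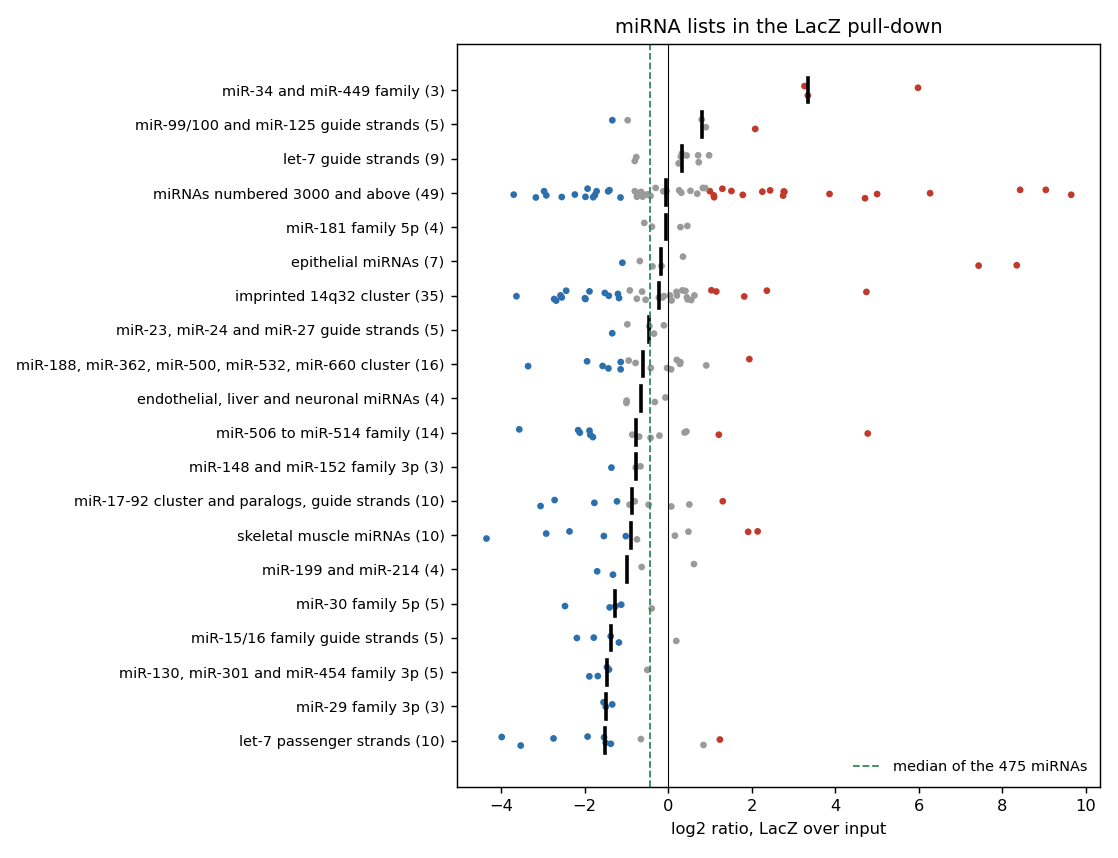
Log2 ratio of LacZ over input for the members of each miRNA list with at least 3 of them among the 475 (number in brackets), ordered by median (black bars). Red and blue points are at least 2-fold higher or lower, and the dashed line is the median of the 475, -0.44. Of the 9 let-7 guides 7 lie to the right of the dashed line, and the let-7 passenger strands, miR-29 and miR-130 families lie mostly to the left.

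The miR-17-92 cluster, a growth-promoting polycistron, puts this spread within 1 primary transcript, MIR17HG on chromosome 13. In transcript order, the log2 ratios of its main arms were -1.22 for miR-17-5p, -0.92 for miR-18a-5p, -2.72 for miR-19a-3p, -0.80 for miR-20a-5p, -3.05 for miR-19b-3p and 1.31 for miR-92a-3p. The counting intervals of the last pair do not meet: -3.12 to -2.99 and 1.28 to 1.34. MIR19B1 lies at 91351192 to 91351278 and MIR92A1 at 91351314 to 91351391, both in an exon of MIR17HG on the plus strand. miR-19b-3p and miR-92a-3p can also come from the paralogous hairpins MIR19B2 and MIR92A2 on chromosome X. Over the cluster and its paralogs, 1 of 10 guides was higher and 4 were lower, near the shares over the 475 miRNAs (18.1% and 34.3%), with miR-93-5p level at 1.05-fold and miR-106b-5p 3.43-fold lower.

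**Figure D5:**
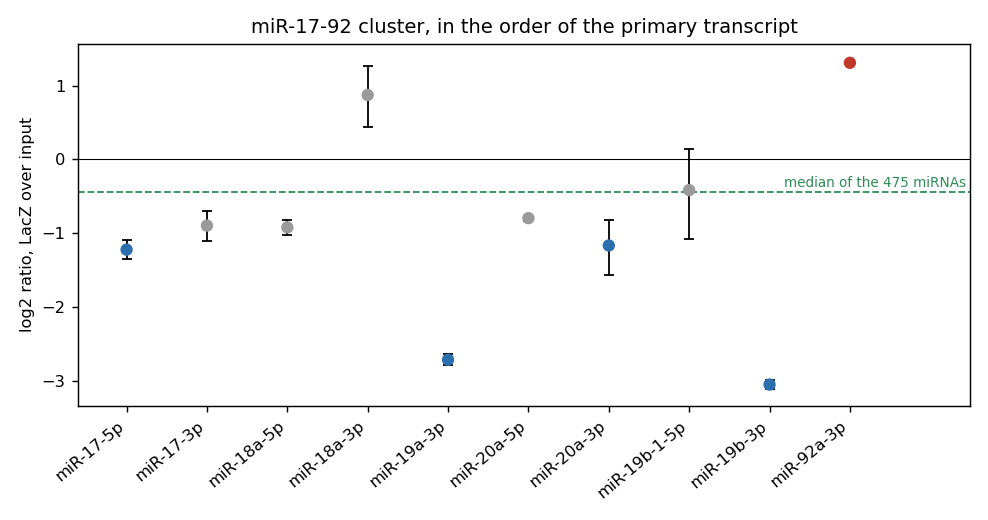
Log2 ratio of LacZ over input (vertical) for the arms of the miR-17-92 cluster with at least 100 input reads, in transcript order (horizontal). Bars are 95% counting intervals, red and blue points are at least 2-fold higher or lower, and the dashed line is the median of the 475 miRNAs. miR-19a-3p and miR-19b-3p lie lowest and miR-92a-3p, at 1.31, highest.

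The muscle miRNAs lay on both sides of the input. miR-206 was 1.40-fold higher (1.38 to 1.42, from 125781 and 25102 reads), while miR-133b, made from the same cluster, was 7.62-fold lower. With TMM factors the log2 ratio of miR-206 was -0.11, below the input. miR-1-3p was 2.90-fold lower (2.78 to 3.04), miR-133a-3p 1.68-fold lower and miR-499a-5p, encoded in a myosin gene, 5.49-fold lower from 270 and 7 reads. miR-486-5p and miR-486-3p were the 2 higher of the 10 in the list, of which 5 were lower, beside 18.1% higher and 34.3% lower over the 475 miRNAs. The lowest, miR-1-5p, had 71 input reads and 0 in LacZ, at least 3.37-fold lower.

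Of the miRNAs that mark other cell types, the epithelial list had 2 of 7 higher, beside 18.1% over the 475 miRNAs. These were miR-205-5p and miR-203a-3p, which passed through LacZ alone and had to be higher. Of the 5 with at least 20 input reads, 0 were higher. miR-203a-3p had 2 input reads and 61 in LacZ, with 6 in EVEN and 15 in ODD. The miR-200 family and miR-141-3p were not high with miR-205-5p and miR-203a-3p. miR-200c-3p had 90 and 16 reads, miR-200a-3p 168 and 21, miR-141-3p 196 and 17, and miR-429 86 and 9, all less than 2-fold apart by share, and miR-200b-3p was 2.63-fold lower from 37 and 2 reads. The source of the miR-205-5p and miR-203a-3p reads was not tested. miR-126-3p and miR-9-5p were level with the input, at 1.05-fold and 1.25-fold lower, and miR-126-5p and miR-9-3p lay just under 2-fold lower.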

How the data were processed

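Per the labels' protocols, RNA from RD lysate and from native pull-downs was extracted with phenol and chloroform, and QIAseq miRNA libraries were sequenced single-end. For 4 libraries the authors deposited a table of raw counts by mature miRNA, and CPM that equal count over library total. The submitters' processing notes name GRCh38. Not given in the sources used: the aligner, the annotation, and how strand and molecular identifiers were handled. Counts of amplified copies would make the intervals too narrow.

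Log2 ratios used counts plus 0.5 over library totals. Folds are ratios of shares, with 95% exact conditional (Clopper-Pearson) intervals. A side at 0 reads is a bound against 3 counts. The minimum was 20 reads in LacZ or input, the threshold 2-fold. Shares of reads say nothing of absolute amounts.

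The miRNAs and the 26 lists were chosen with earlier results of these data known. Named miRNAs are the 12 highest and 12 lowest with at least 1000 input reads or 100 reads in either library, the 10 most abundant, 2 most abundant and 2 most extreme of each list, 6 hairpins by arm difference and 2 of each seed family of at least 3. Other names were chosen after their values were seen. The lists of miR-221/222, miR-320 and miR-378, with fewer than 3 counted miRNAs, are given in the closing section. Alternatives were TMM factors (edgeR 4.0.16), size factors of DESeq2 1.42.0, totals without the 10 most abundant, a minimum of 1 or of 100 reads, adding 5 to counts, CPM plus 1, a 4-fold threshold and a counting interval that excludes 1. Steps used Python 3.11.15, pandas 2.3.3, numpy 2.4.6, scipy 1.17.1 and R 4.3.3, and were tested on simulated data.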

Additional observations from a re-analysis of the deposited data

How the results depend on the processing

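With TMM factors 246 miRNAs were lower and the median log2 ratio was -1.04. The median was -0.72 with median-of-ratios size factors and -0.22 with totals that leave out the 10 most abundant miRNAs. A minimum of 1 read gave 478 higher, a median of 0.49 and a GC difference (median at 60% or more minus median under 40%) of 1.67. A minimum of 100 reads gave 45 higher, 106 lower and a GC difference of 1.99. With 5 added to each count 93 were lower, the median was 0.0397 and the GC difference 1.70. At 1 read or with 5 added, the constant weighs more in the shallower LacZ library. At a minimum of 1 read, a miRNA with 1 input read and 0 in LacZ, such as miR-124-3p, is called higher through the constant alone. The 478 and the median of 0.49 include such miRNAs. A 4-fold threshold gave 45 higher and 55 lower. Chosen after seeing the data, a minimum of 20 input reads gave a GC difference of 2.03 and a minimum of 1000 gave 1.35. Of 118 miRNAs selected by the naming rule, 75 were past 2-fold. Of these calls TMM factors lost 6, median-of-ratios size factors 2, 3 were lost with totals without the most abundant miRNAs and 5 with 5 added. The log2 ratio changed sign for 16 of the 118 with TMM factors and for 3 with size factors. It did so for 4 with totals without the most abundant miRNAs and for 2 with 5 added. None of the 75 calls changed sign. Among the 16 were let-7a-5p, let-7f-5p, miR-206, miR-93-5p and miR-16-5p, which lay above the input in the main setting and below it with TMM factors. TMM, size factors and totals shift all ratios alike, so relative medians cannot differ under them. At a minimum of 1 read those of the let-7 guides, the miR-181 family, the imprinted cluster and the epithelial list changed sign, that of the imprinted cluster did so at 100 reads (-0.12), and that of miR-23, miR-24 and miR-27 at 100 reads, with CPM plus 1 and with at least 20 input reads. Each relative median is taken against the median of its own setting, which was 0.49 at a minimum of 1 read and -0.44 in the main setting. The let-7 guides and the miR-181 family had the same members and ratios in both. The cause of the other sign changes was not tested. Depth limits EVEN most: 156 of the 475 miRNAs had 0 reads there, 88 in ODD, 20 in LacZ and 4 in the input.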

Other observations

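Large clusters not described above held higher and lower miRNAs, in counts to be read beside the 18.1% higher and 34.3% lower over all 475 miRNAs. In the imprinted DLK1-DIO3 cluster of chromosome 14, 35 of 92 listed miRNAs were counted, with 5 at least 2-fold higher and 13 lower, and a relative median of 0.22, which was -0.12 at a minimum of 100 reads. The highest was miR-409-5p, with 25 input reads and 97 in LacZ, 27.3-fold higher (95% counting interval 17.4 to 44.2), while miR-409-3p from the same hairpin had 227 and 37. The adenine-rich miR-376a-3p had 302 and 6 reads, 7.17-fold lower (3.25 to 19.7), and miR-136-3p 43 and 0, at least 2.04-fold lower. miR-381-3p, the most abundant in the input, was 1.18-fold lower. In the miR-506 to miR-514 family on chromosome X, 2 of 14 were higher and 6 lower. Beside miR-509-3p, the abundant miR-514a-3p (1.16-fold lower) and miR-508-3p (1.31-fold higher) were near the input, and miR-513c-3p had 41 reads and 0.

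In the CLCN5 cluster 1 of 16 miRNAs was higher and 6 were lower. Its arms spanned miR-362-3p at a log2 ratio of -3.35 to miR-501-3p at 1.94, with the abundant miR-660-5p at -1.43 and miR-532-5p at -0.94. Of 49 counted miRNAs with late catalogue numbers (miR-3000 onward), 18 were higher and 14 lower, with a relative median of 0.40. Of these, 6 passed through LacZ alone and had to be higher. Of the 43 others 12 were higher, beside 15.6% of the 461 miRNAs with at least 20 input reads. Their median was 0.06 above the median of those 461. The most abundant, miR-3074-5p and miR-4521, were 1.24-fold higher and 2.65-fold lower. The highest, miR-6820-5p and miR-6125, had 1 and 0 input reads, and the latter was at least 86.6-fold higher from 37 LacZ reads.

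The 3 counted members of the miR-34 and miR-449 family were all higher, beside 18.1% over the 475 miRNAs. miR-449a and miR-449c-5p, which share a host gene, were 10.2-fold and 9.66-fold higher. miR-34a-5p had 2 and 22 reads, passed through LacZ alone and had to be higher. EVEN and ODD had 0 to 4 reads of each. In the miR-378 family miR-378a-3p was 1.25-fold higher beside the 10.1-fold of its 5p arm. miR-320a-3p and miR-320b were 1.34-fold and 1.59-fold higher. No miRNA of the miR-221 and miR-222 list was counted, with 6 input reads and 11 in LacZ in all. In the miR-23, miR-24 and miR-27 list, 1 of 5 was lower, miR-27a-3p at 2.53-fold, with miR-27b-3p at 1.97-fold and miR-24-3p at 1.07-fold. Of 4 miR-199 and miR-214 arms, miR-199a-5p (2.50-fold) and miR-199b-5p (3.42-fold) were lower and miR-214-3p was 1.53-fold higher.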
